A study of Mus musculus with 16 samples.

Results

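The integrin subunits described here are 10 genes whose products sit on adherent cells: the alpha subunits Itga3, Itga5, Itga6, Itga7, Itga8, Itga9 and Itgav, and the beta subunits Itgb1, Itgb3 and Itgb5. They were taken by gene symbol from the platform annotation, with every probe set of each gene, which gave 26 probe sets of 22626 and 10 genes of 12393 on the array. Messenger RNA was profiled on 16 Affymetrix arrays from 3583T3 and 3151T4, lines that were each grown from a dissociated small cell lung tumour of the mouse. Each line carried Nfib, L-Myc (Mycl1, now named Mycl) or both genes (Nfib+Mycl1), or was untransfected (control), which made 8 groups of 2 arrays and 4 arrays per vector. FLAG-tagged mouse Nfib was expressed from an MSCV retroviral vector with a PGK-driven neomycin resistance gene and G418 selection, and L-Myc from the same kind of vector with puromycin resistance and puromycin selection. The control cells had neither vector nor drug, so vector, selection and transgene cannot be told apart in any comparison with control. The labels do not say whether the cultures were clonal or pooled, nor whether replicates were separate cultures, so p-values measure the spread between these arrays, which may be technical.

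Integrins are receptors made of 1 alpha and 1 beta subunit that bind matrix proteins outside the cell and, through talin, kindlin and other adaptors, the actin skeleton inside it. The alpha subunit largely sets the ligand: alpha3, alpha6 and alpha7 bind laminins, alpha5 fibronectin, alpha8 nephronectin, alpha9 tenascin-C, osteopontin and Vcam1, and alphav vitronectin and latent TGF-beta. All of these alpha subunits can pair with beta1, and alphav also pairs with beta3 and beta5.

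Signals are log2 values, changes are log2 differences with a standard error (SE), and a probe set is said to have risen or fallen where limma's adjusted p over all tested probe sets was under 0.05. A probe set was tested if it exceeded log2 4 on at least 2 arrays, which 15799 probe sets did. Of the 26 integrin probe sets, 23 passed, from 8 genes. The signal scale has no common calibration between probe sets, so levels are compared only within a probe set. In probe set names, the endings _s_at and _x_at mark designs that can also match other transcripts.

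2 arrays of line 3583T3 went against their labels at the Mycl probe set that sees the transgene (1422087_at). The array labelled Nfib replicate 2 had a log2 signal of 10.22 there, where the labelled Mycl1 arrays of both lines and the other Nfib+Mycl1 arrays lay between 9.08 and 11.05. The array labelled Nfib+Mycl1 replicate 2 had 2.67, close to the control arrays at 2.24 to 2.47. Across all probe sets, 12 of 16 arrays correlated best with the other array of their group, and 4 did not: both arrays labelled Nfib and both labelled Nfib+Mycl1 in 3583T3. These correlated best across the labels, Nfib replicate 1 with Nfib+Mycl1 replicate 2 (r = 0.9887) and Nfib replicate 2 with Nfib+Mycl1 replicate 1 (r = 0.9904). At a second Mycl probe set, 1434777_at, the first pair had 7.28 and 7.30 and the second 4.95 and 5.6. Whether the labels of the replicate 2 arrays were exchanged was not tested. Groups are named by their labels throughout. Results that rest on these groups are given with and without those 2 arrays, as an alternative chosen after the data were seen.

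The cultures were also checked against marker lists. Of 17 neuroendocrine markers on the array, 13 averaged at or below log2 4, among them Chga, Syp and Insm1. Ncam1, Uchl1, Eno2 and Ddc averaged above it, but Ddc ranged from 1.42 to 10.71 over the 16 arrays. By line, 3 of the 17 averaged above log2 4 in 3583T3 and 5 in 3151T4. The mean of 15 fibroblast markers, which include Col1a1 and Pdgfra, lay between 7.51 and 10.11 over the 16 arrays. That of 12 epithelial markers, which include Krt18 and Cdh1, lay between 7.43 and 8.23 in 3583T3 and between 4.78 and 6.08 in 3151T4. The mean of 16 macrophage and leukocyte markers lay between 2.90 and 3.35 on the 12 vector arrays, against 6.42 to 8.59 on the 4 control arrays. By group means, 3, 2 and 3 of these 16 exceeded log2 4 with Nfib, Mycl1 and both genes, against 15 in control. Of 15 tested, 9 passed the filter only through the control arrays, so their direction against control was set by the filter. In RNA from a whole culture, fewer cells of a type and less RNA per cell cannot be told apart.

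Of the 10 genes, 7 had at least 1 probe set above log2 4 on all 16 arrays: Itga3, Itga5, Itga6, Itga9, Itgav, Itgb1 and Itgb5. Itga7, a laminin receptor subunit best known in muscle, lay between 3.12 and 5.16, and its 6 arrays above log2 4 were all of line 3151T4 and of its Nfib, Mycl1 and control groups. Itga7 therefore entered the tests through those groups alone, and the comparisons that set them against 3583T3 or Nfib+Mycl1 had a built-in direction, so its calls there are no evidence of a difference in level or response. Itga8 lay between 1.81 and 2.28 and Itgb3 between 2.25 and 3.79, so neither passed the filter. The 1 Itgb1 probe set that failed the filter, 1438119_at, lay between 1.56 and 1.97.

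**Figure D1:**
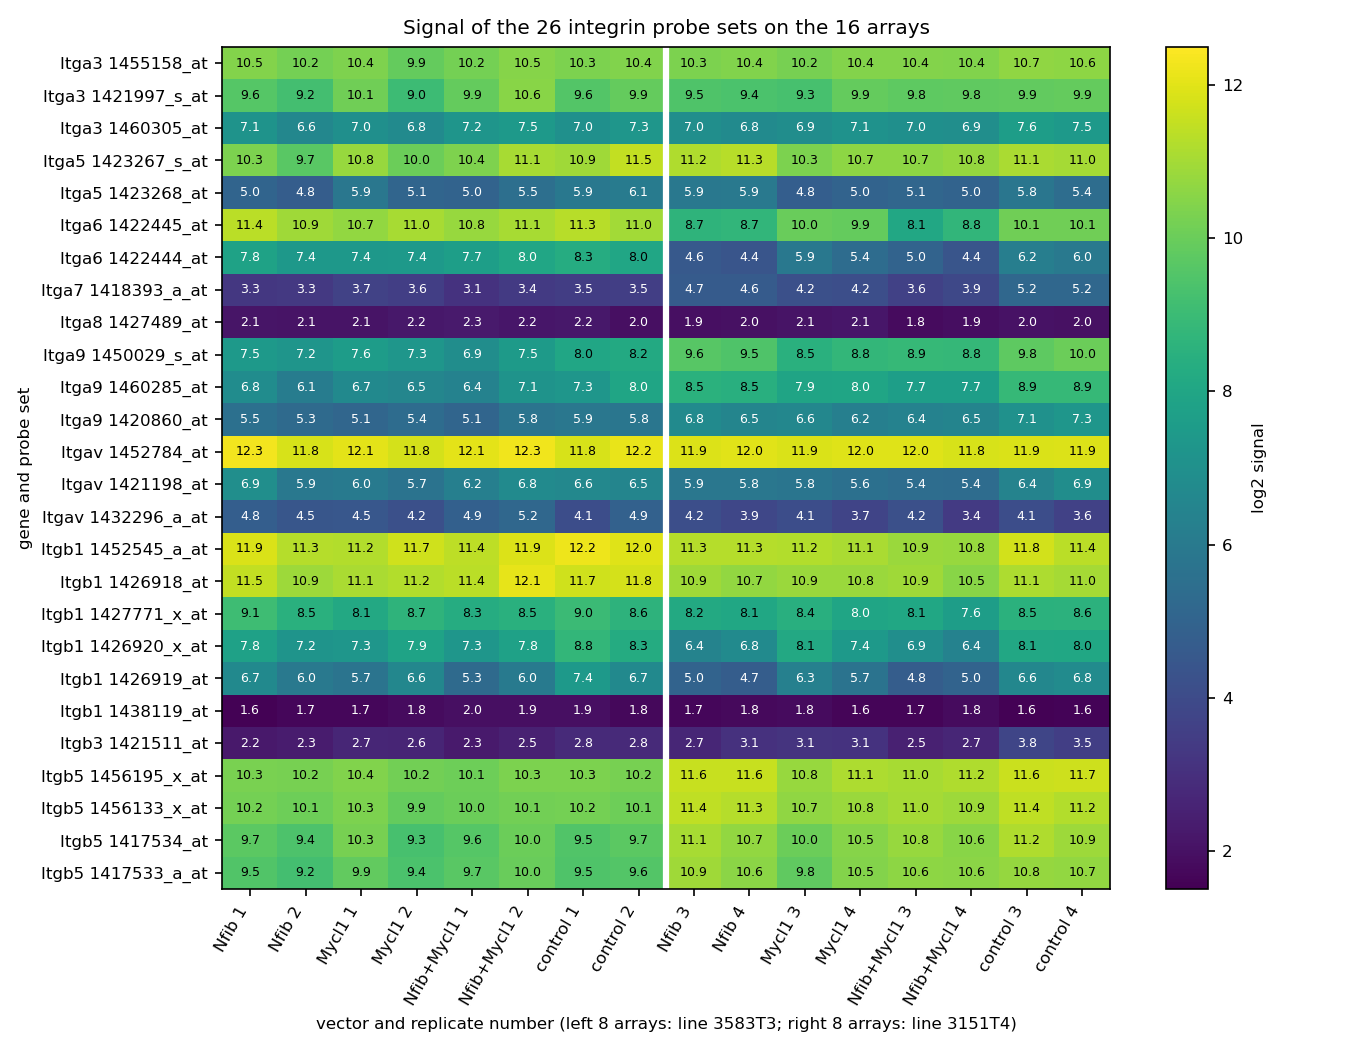
Log2 signal of the 26 integrin probe sets (rows, by gene) on the 16 arrays (columns, by line, vector and replicate number), with each value printed in its cell and coloured on the scale at the right. Itga8, Itgb3 and Itgb1 1438119_at stay below 4 on all 16 arrays, Itga6 is higher in 3583T3, and Itga9 and Itgb5 are higher in 3151T4.

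Probe sets of 1 gene followed each other to different degrees. Over the 16 arrays, which share 2 lines and 4 vectors, Pearson's r was 0.94 to 0.96 among the 3 Itga9 probe sets, 0.94 for the 2 of Itga6 and 0.93 to 0.99 among the 4 of Itgb5. It was 0.58 to 0.93 among the 5 Itgb1 probe sets that passed the filter and 0.49 to 0.69 among the 3 of Itgav. The Itgav and Itgb1 results below therefore depend on the probe set.

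Nfib protein binds a palindromic DNA site, and Myc proteins bind the E-box. A table of promoters from RefSeq (GRCm38.p6) held 8 promoters of 7 of the integrin genes. The 250 bases before each start were searched on both strands. The E-box CACGTG was in 0 of these 8 and in 6.02% of all 32851 promoters. The core of the nuclear factor I site, TTGGC, was in 2 of 8, those of Itga5 and Itgb5, and in 41.5% of all promoters. The full palindrome, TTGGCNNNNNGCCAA, was in 0 of 8 and in 0.0365% of all; each full site also holds the core. The 3 sequences below are those of the 2 promoters with a core match, in capitals, and of Itgb1, the gene with the largest fall of any integrin probe set with Nfib+Mycl1. A match is a description of the letters in this window alone.
Itga5, chr15:103366792-103367041, minus strand: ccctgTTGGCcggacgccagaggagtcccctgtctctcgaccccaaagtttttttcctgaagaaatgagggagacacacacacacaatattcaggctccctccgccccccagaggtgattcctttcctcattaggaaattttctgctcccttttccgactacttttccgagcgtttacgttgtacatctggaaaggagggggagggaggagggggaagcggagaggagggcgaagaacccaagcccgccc
Itgb5, chr16:33829415-33829664, plus strand: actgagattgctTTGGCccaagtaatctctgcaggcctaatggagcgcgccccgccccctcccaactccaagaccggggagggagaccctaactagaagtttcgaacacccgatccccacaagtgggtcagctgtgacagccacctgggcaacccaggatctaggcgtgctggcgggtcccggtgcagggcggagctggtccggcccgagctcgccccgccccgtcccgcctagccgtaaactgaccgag
Itgb1, chr8:128685404-128685653, plus strand: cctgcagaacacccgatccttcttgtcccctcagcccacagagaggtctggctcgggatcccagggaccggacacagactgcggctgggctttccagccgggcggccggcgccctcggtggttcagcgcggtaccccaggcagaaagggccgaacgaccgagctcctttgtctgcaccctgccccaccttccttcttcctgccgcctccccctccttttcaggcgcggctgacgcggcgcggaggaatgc
The core match began 245 bases before the start of Itga5 and 238 bases before that of Itgb5.

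Nfib versus control sets cells with the Nfib vector against untransfected cells, although 1 of the 4 arrays labelled Nfib had the Mycl transgene signal given above. No integrin probe set rose with Nfib, and 3 of 23 fell: 1 of Itga6, which with beta1 or beta4 forms laminin receptors, and 2 of Itgb1, the common partner of the alpha subunits. These were 13% of the integrin probe sets, where 4.3% of all tested probe sets fell and 4.15% rose. The median change was -0.42 over the integrin probe sets and 0.02 over all. Without the 2 doubted arrays 3 fell again.

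Itgb1 1426919_at had 6.74 and 5.95 in 3583T3 Nfib cells, against 7.41 and 6.73 in 3583T3 control cells. In 3151T4 it had 5.01 and 4.74 with Nfib, against 6.61 and 6.82 in control. Both lines were lower with Nfib, and the groups overlapped only in 3583T3. Over both lines it changed by -1.28 ± 0.30 (SE, n = 4 arrays a group), a signal 0.411 times that of control (adjusted p = 0.0148). Itgb1 1426920_x_at changed by -1.26 ± 0.27 (adjusted p = 0.00823), and its 4 Nfib arrays, at 6.42 to 7.79, lay below the 4 control arrays, at 8.04 to 8.78. The remaining 3 tested Itgb1 probe sets had differences of -0.42, -0.41 and -0.21, none past the test (adjusted p 0.148 to 0.586).

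Itga6 1422444_at had 7.85 and 7.36 in 3583T3 Nfib cells, against 8.32 and 8.02 in 3583T3 control cells. In 3151T4 it had 4.56 and 4.39 with Nfib, against 6.20 and 5.96 in control. Neither line's Nfib arrays overlapped its control arrays, and the gap was wider in 3151T4. The change over both lines was -1.08 ± 0.28 (adjusted p = 0.0278). The brighter probe set, 1422445_at, differed by -0.71 ± 0.31 (adjusted p = 0.193), and its lines went apart, as given below. The Itga6 1422444_at call ended without 3583T3 control replicate 1 or any of the 3151T4 control or Nfib arrays (adjusted p 0.0623 to 0.101), and that of Itgb1 1426919_at without 3583T3 control replicate 1 or either 3151T4 Nfib array (0.0511 to 0.0615). Of the macrophage and leukocyte markers 13 of 15 tested fell, and the fall of 9 of the 15 was built in by the filter. Of the fibroblast markers 8 of 15 rose, and of the epithelial markers 5 of 8 fell. The part of these cell types' markers in the integrin changes was not tested. The number of calls with Nfib was 1 without 3583T3 control replicate 1, 3151T4 Nfib replicate 3 or 3151T4 Nfib replicate 4, and 2 without 3151T4 control replicate 3 or 4.

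Mycl1 versus control sets cells with the L-Myc vector against untransfected cells. The 3 integrin probe sets that fell were all 3 of Itga9, whose product with beta1 binds tenascin-C, osteopontin and Vcam1, and none rose. They were 13% of 23, where 3.92% of all probe sets fell and 6.04% rose, and the median change was -0.40 over the integrin probe sets and 0.04 over all.

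Itga9 1450029_s_at had 7.56 and 7.30 in 3583T3 Mycl1 cells, against 8.0 and 8.18 in 3583T3 control cells. In 3151T4 it had 8.47 and 8.80 with Mycl1, against 9.78 and 10.02 in control. Within each line both Mycl1 arrays lay below both control arrays. The change over both lines was -0.96 ± 0.19, a signal 0.514 times that of control (adjusted p = 0.0133). Itga9 1460285_at changed by -0.95 ± 0.24 (adjusted p = 0.0283) and 1420860_at by -0.66 ± 0.17 (adjusted p = 0.0268).

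Without the 2 doubted arrays, which are in neither group but enter the shared estimate of the spread, 7 integrin probe sets fell with Mycl1. The 4 added were Itga5 1423267_s_at (-0.69 ± 0.20, adjusted p = 0.0328), Itgav 1421198_at (-0.83 ± 0.21, adjusted p = 0.0169), Itgb1 1452545_a_at (-0.51 ± 0.12, adjusted p = 0.0126) and Itgb1 1426918_at (-0.40 ± 0.11, adjusted p = 0.0263). With all arrays the same 4 had adjusted p of 0.112, 0.0521, 0.0621 and 0.147. The Itga9 1450029_s_at call ended without replicate 4 of 3151T4 control or of 3151T4 Mycl1 (adjusted p 0.0548 and 0.0526), those of the remaining 2 Itga9 probe sets without any 1 of 6 and of 5 Mycl1 or control arrays (0.0527 to 0.0937). The number of calls was 0 without replicate 4 of 3151T4 control or of 3151T4 Mycl1, 1 without 3583T3 Mycl1 replicate 1 or 3151T4 control replicate 3, 2 without either 3583T3 control array or 3151T4 Mycl1 replicate 3, and 5 and 6 without the doubted Nfib+Mycl1 array and the doubted Nfib array. Of 15 macrophage and leukocyte markers tested, 14 fell with Mycl1. The fall of 9 of the 15 was built in by the filter, and the part of these markers was not tested.

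Nfib+Mycl1 versus control had the most integrin changes of the comparisons with control: 10 of 23 probe sets fell, of Itga6, Itga7, Itga9 and Itgb1, and none rose. That is 43.5%, where 13.3% of all probe sets fell and 15.6% rose. The 10 include Itga7, which passed the filter through other groups, so its direction here was built in. The median change was -0.54 over the integrin probe sets and 0.04 over all. Without the 2 doubted arrays 12 fell, with Itgav 1421198_at (-0.86 ± 0.23, adjusted p = 0.0136) and Itgb1 1426918_at (-0.37 ± 0.12, adjusted p = 0.0335) added. The 3 comparisons with control share the same 4 control arrays.

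Of the beta subunits, Itgb1 fell on 4 of 5 tested probe sets. Itgb1 1426919_at had 5.32 and 6.01 in 3583T3 Nfib+Mycl1 cells, against 7.41 and 6.73 in 3583T3 control cells. In 3151T4 it had 4.75 and 5.0 with both genes, against 6.61 and 6.82 in control. All 4 arrays labelled Nfib+Mycl1, of which the one at 6.01 lacked the Mycl transgene signal, lay below all 4 control arrays, and the change was -1.62 ± 0.30, a signal 0.325 times that of control (adjusted p = 0.00216). The change was -1.21 ± 0.27 at 1426920_x_at (adjusted p = 0.0051), -0.59 ± 0.17 at 1452545_a_at (adjusted p = 0.016) and -0.54 ± 0.19 at 1427771_x_at (adjusted p = 0.0424). Itgb1 1426918_at, at 10.53 to 12.09 on the arrays labelled Nfib+Mycl1 and 11.03 to 11.77 in control, differed by -0.18 ± 0.18 (adjusted p = 0.467). The 12.09 was on the doubted array. Without the doubted arrays the limma difference was -0.37 ± 0.12 and passed the test (adjusted p = 0.0335). The 4 Itgb5 probe sets, for the alphav partner, differed by -0.31 to 0.09 and none passed the test (adjusted p 0.109 to 0.818).

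Of the alpha subunits, all 3 Itga9 probe sets fell, by 0.97, 1.02 and 0.59 on the log2 scale (adjusted p = 0.00323, 0.00749 and 0.0169). Itga9 1450029_s_at had 6.89 and, on the doubted array, 7.51 in 3583T3 Nfib+Mycl1 cells, against 8.0 and 8.18 in 3583T3 control cells. In 3151T4 it had 8.87 and 8.81 with both genes, against 9.78 and 10.02 in control. The arrays labelled Nfib+Mycl1 were below control within each line, and the difference between lines was wider than either gap. Itga6 fell by 0.95 at 1422445_at (SE 0.31, adjusted p = 0.0338) and by 0.86 at 1422444_at (SE 0.28, adjusted p = 0.0346). Itga7, 1 of the 10, was between 3.12 and 3.90 on the 4 Nfib+Mycl1 arrays, against 3.50 to 5.16 on the 4 control arrays, and passed the filter through other groups. The 3 Itga3 probe sets differed by -0.17 to 0.20, the 2 of Itga5 by -0.42 and -0.65, and the 3 of Itgav by -0.66 to 0.22, and none of these passed the test.

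Leaving out single arrays left 5 to 11 calls. It was 5 without 3151T4 Nfib+Mycl1 replicate 3 or 3151T4 control replicate 4, and 6 without 3583T3 control replicate 1 or 3151T4 Nfib+Mycl1 replicate 4. Itga9 1450029_s_at and 1460285_at and Itgb1 1426920_x_at and 1426919_at passed the test without any 1 of the 16 arrays. With the 2 arrays of each group averaged, which leaves 8 values, 0 of these 10 calls and 0 of the 3 each with Nfib and with Mycl1 passed. The Itga7 call ended without 3151T4 control replicate 4 (adjusted p = 0.0528), and the remaining 5 calls ended without single arrays among 3583T3 control replicate 1, 3583T3 Nfib+Mycl1 replicate 1, 3151T4 Mycl1 replicate 4 and the 3151T4 control and Nfib+Mycl1 arrays (0.0508 to 0.127). Of 15 macrophage and leukocyte markers tested, 14 fell with both genes, the fall of 9 of the 15 being built in by the filter. Of the other lists, 3 of 15 fibroblast markers rose and 3 of 8 epithelial markers fell. The part of any of these markers was not tested.

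**Figure D2:**
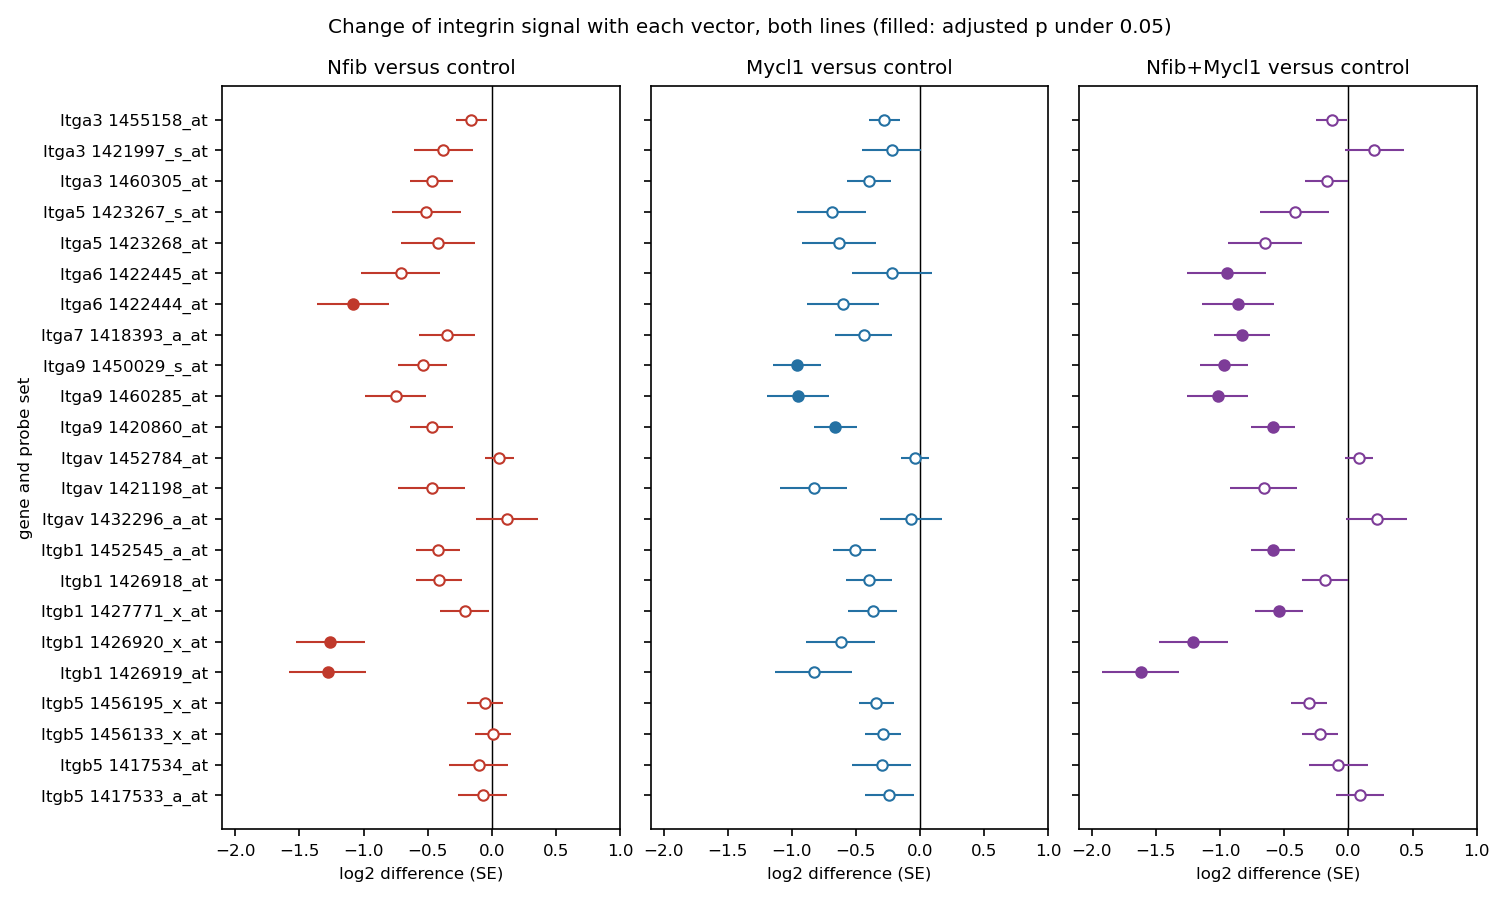
Log2 difference from control (points, with SE bars, over both lines, n = 4 arrays a group) of the 23 tested integrin probe sets (rows) with Nfib, Mycl1 and Nfib+Mycl1; filled points have an adjusted p under 0.05. The filled points are 3 with Nfib, 3 with Mycl1 and 10 with both genes, and all lie below 0. The 10 include Itga7, whose direction was built in by the filter.

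Between vector groups no integrin probe set passed the test with all arrays included. Nfib+Mycl1 versus Mycl1 adds Nfib to cells with L-Myc, and limma called 0 of 23 integrin probe sets (smallest adjusted p 0.14), where 1.35% of all probe sets rose and 1.61% fell. At an unadjusted p under 0.05 there were 3, all lower with both genes: Itga6 1422445_at (-0.73 ± 0.31), Itgb1 1426920_x_at (-0.60 ± 0.27) and Itgb1 1426919_at (-0.79 ± 0.30). The first passed the test in the model with a mean for each of the 8 groups (adjusted p = 0.0118). Without the 2 doubted arrays 0 were called. The macrophage and leukocyte list was too low on the vector arrays to compare these groups.

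Nfib+Mycl1 versus Nfib adds L-Myc to cells with Nfib. Again 0 of 23 were called (smallest adjusted p 0.0845), where 8.54% of all probe sets rose and 6.8% fell, and 2 had an unadjusted p under 0.05: Itga3 1421997_s_at (0.59 ± 0.23) and Itga9 1450029_s_at (-0.43 ± 0.19). This comparison contains both doubted arrays, 1 in each group. Without them 3 probe sets fell: Itga9 1450029_s_at (-0.67 ± 0.20, adjusted p = 0.0259), Itga9 1460285_at (-0.70 ± 0.18, adjusted p = 0.0131) and Itgb1 1452545_a_at (-0.45 ± 0.14, adjusted p = 0.033). Itga3 1421997_s_at passed the test without 3583T3 Mycl1 replicate 2 (adjusted p = 0.0495).

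More integrin probe sets differed between the lines than with any vector, and the same held for all tested probe sets. This comparison also has more arrays on each side. Over all vectors, 9 of 23 integrin probe sets were higher in 3583T3 than in 3151T4 and 8 were lower, 39.1% and 34.8%, where 30.4% of all probe sets were higher and 27.7% lower. Higher in 3583T3 were Itga6, Itgb1 and 2 of 3 Itgav probe sets. Lower were Itga9, Itgb5 and Itga7, the last with a direction built in by the filter. Itga3 and Itga5 did not pass the test (adjusted p 0.133 to 0.902). Without the 2 doubted arrays 16 were called, 8 in each direction, with Itgb1 1426920_x_at lost (adjusted p = 0.0719).

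Itga6 had the widest gap. Its 1422445_at signal lay between 10.70 and 11.38 on the 8 arrays of 3583T3 (median 11), against 8.09 to 10.12 on the 8 arrays of 3151T4 (median 9.34). The ranges did not meet, and the difference was 1.73 ± 0.22 (adjusted p = 7.5e-06). At 1422444_at it was 2.52 ± 0.20 (adjusted p = 5.1e-08). Itga9 ran the other way: 1450029_s_at lay between 6.89 and 8.18 in 3583T3, against 8.47 to 10.02 in 3151T4, a difference of -1.71 ± 0.14 (adjusted p = 5.4e-08). The other 2 Itga9 probe sets differed by -1.38 and -1.17.

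Itgb5, which pairs with alphav, lay between 10.09 and 10.42 in 3583T3 at 1456195_x_at, against 10.81 to 11.68 in 3151T4, without overlap. The difference was -1.06 ± 0.10 (adjusted p = 3.6e-07), and the other 3 Itgb5 probe sets differed by -0.98 to -1.02. Itga7, 1 of the 8 lower probe sets, lay between 3.12 and 3.69 in 3583T3, against 3.64 to 5.16 in 3151T4, and no difference is given because it passed the filter through 3151T4 alone. Itgb1 was higher in 3583T3 by 0.41 to 0.70 on its 5 tested probe sets (adjusted p 8.6e-04 to 0.0274), with overlapping ranges on each. Itgav was higher by 0.74 ± 0.17 at 1432296_a_at (adjusted p = 0.00179) and by 0.44 ± 0.18 at 1421198_at (adjusted p = 0.0493). The brightest, 1452784_at, differed by 0.11 ± 0.08 (adjusted p = 0.252). The call of Itgav 1421198_at ended in 11 of 16 fits that left out 1 array (adjusted p 0.0504 to 0.112) and that of Itgb1 1426920_x_at in 5 (0.0564 to 0.0636). Of 12 epithelial markers on the array 8 were tested, and all 8 were higher in 3583T3. They all passed the filter on the 3583T3 arrays but 6 on those of 3151T4, so the direction of the rest was built in. The part of these markers was not tested.

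**Figure D3:**
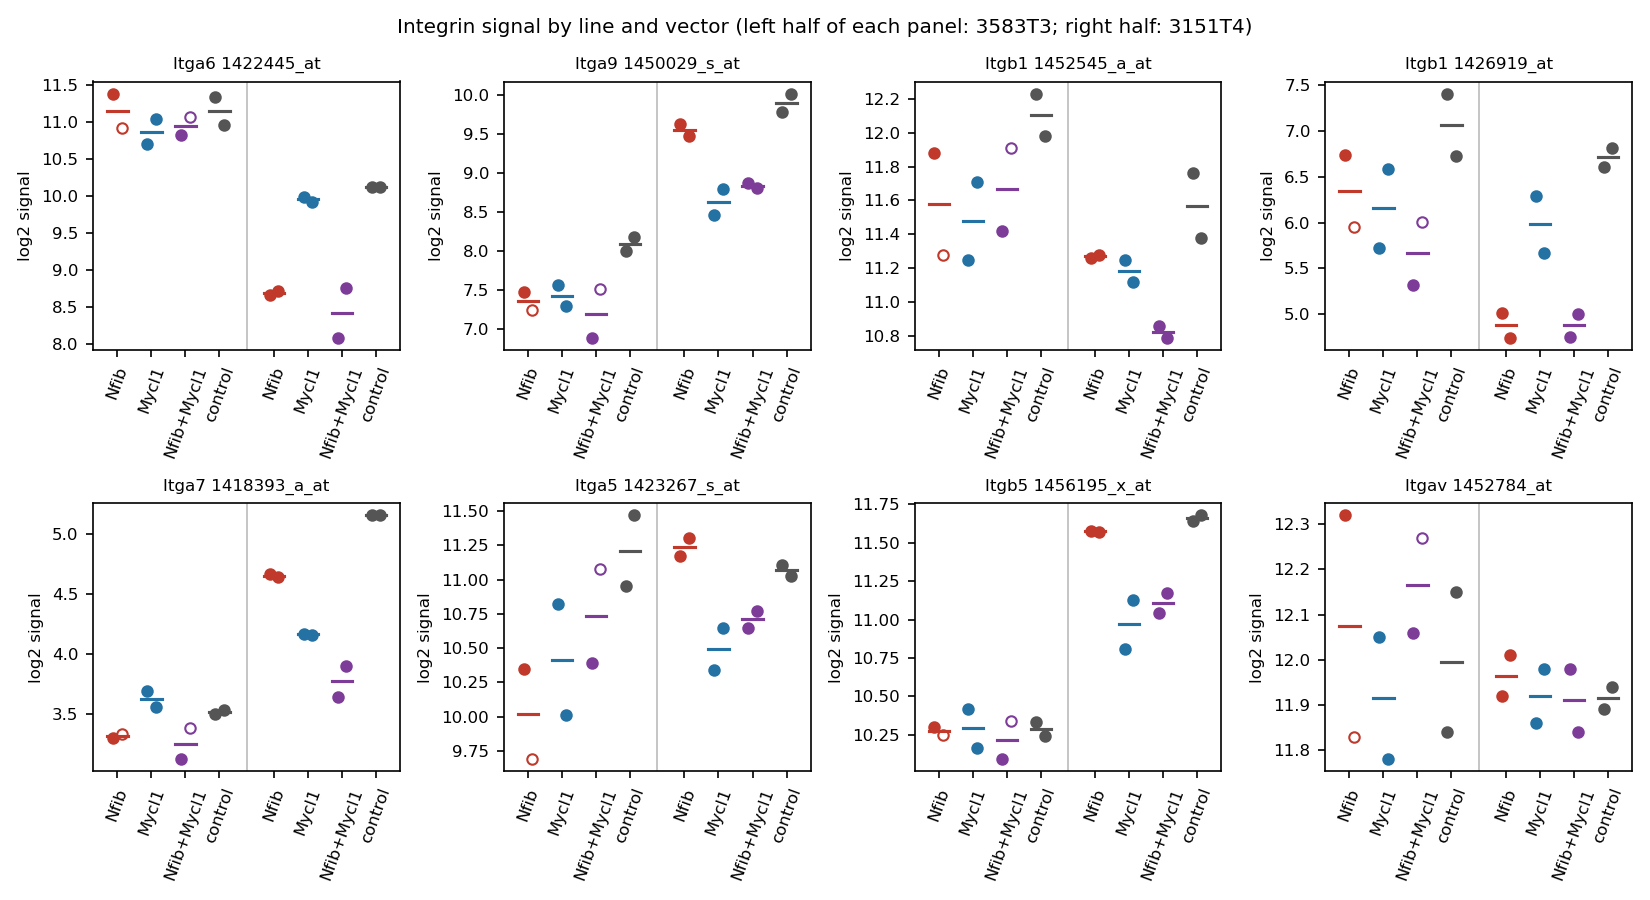
Log2 signal of 8 integrin probe sets on each array, by vector within line 3583T3 (left of the grey line in each panel) and 3151T4 (right); points are arrays, bars are means of 2, open points are the 2 arrays that went against their labels. Itga6 1422445_at drops with Nfib and Nfib+Mycl1 in 3151T4 alone, to 8.69 and 8.43 against 10.12 in control, while Itga9 1450029_s_at is below control with every vector in both lines.

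The order of the 8 groups shows where line and vector meet. For Itga6 1422445_at the means were 11.15 with Nfib, 10.87 with Mycl1, 10.94 with both and 11.14 in control in 3583T3, and these 4 groups overlapped. In 3151T4 the means were 8.69, 9.95 and 8.43 with Nfib, Mycl1 and both genes, against 10.12 in control. There the Nfib and Nfib+Mycl1 arrays overlapped each other and lay more than 1 log2 unit below those of Mycl1 and control. For Itga9 1450029_s_at every group of 3151T4 was above every group of 3583T3, the control mean was the highest within each line (8.09 in 3583T3 and 9.90 in 3151T4), and the 3 vector groups of 3583T3 (7.35, 7.43 and 7.2 with Nfib, Mycl1 and both) overlapped.

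A response that differs between lines was tested as the change from control in 3583T3 minus that in 3151T4. For Nfib, 1 integrin probe set had a higher response in 3583T3 and 1 a lower one, where 2.3% of all probe sets were higher and 3.3% lower. Itga6 1422445_at changed by 0.01 with Nfib in 3583T3, against -1.43 in 3151T4, a difference of 1.44 ± 0.32 (adjusted p = 0.016). Itga5 1423268_at, for the fibronectin receptor subunit, changed by -1.12 in 3583T3, against 0.28 in 3151T4, a difference of -1.40 ± 0.38 (adjusted p = 0.0476). The other Itga5 probe set, 1423267_s_at, had -1.19 and 0.16, and its difference of -1.35 ± 0.41 did not pass (adjusted p = 0.0796). The second Itga6 probe set had -0.56 in 3583T3 and -1.60 in 3151T4, a difference of 1.04 ± 0.37 that did not pass either (adjusted p = 0.138).

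The Itga5 difference rests on the 3583T3 Nfib arrays, of which 1 is doubted: their signals at 1423268_at were 5.03 and, on the doubted array, 4.75, against 5.92 and 6.09 in control. In 3151T4 they were 5.90 and 5.93 with Nfib, against 5.82 and 5.43 in control. The Nfib arrays were below control in the first line and above it in the second. Without the doubted arrays the difference was -1.26 ± 0.40 and the call ended (adjusted p = 0.0903), while that of Itga6 1422445_at was 1.67 ± 0.34 (adjusted p = 0.00894).

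For Mycl1 1 integrin probe set had a higher response in 3583T3 and 0 a lower one, where 0.892% of all probe sets were higher and 0.538% lower. It was Itga7 1418393_a_at, at 3.69 and 3.56 in 3583T3 Mycl1 cells, against 3.50 and 3.53 in 3583T3 control cells. In 3151T4 it was at 4.17 and 4.16 with Mycl1, against 5.16 and 5.16 in control. The call (a difference of responses of 1.11, adjusted p = 0.0491) is not read as a difference in response. In 3583T3 all arrays of Itga7 were below log2 4, where a fall can be understated.

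For Nfib+Mycl1 there were 2 higher and 0 lower, where 3.57% of all probe sets were higher and 1.37% lower. Itga6 1422445_at changed by -0.20 with both genes in 3583T3, against -1.69 in 3151T4, a difference of 1.49 ± 0.32 (adjusted p = 0.0141). The second call was Itga7, with the same limit: its group means differed from control by -0.26 in 3583T3, where it was below log2 4 throughout, and by -1.39 in 3151T4. Without the doubted arrays Itga6 passed again at 1.37 ± 0.34 (adjusted p = 0.0271). The responses to the 3 vectors share the control arrays of each line. Each of the 5 calls of a differing response ended when single arrays were left out, in 4 of 16 fits for Itga6 with both genes (adjusted p 0.0535 to 0.0814), 5 for Itga6 with Nfib (0.0579 to 0.0964), 6 for Itga7 with both genes (0.0659 to 0.0818), and 11 each for Itga7 with Mycl1 (0.0502 to 0.191) and Itga5 with Nfib (0.0619 to 0.188). The arrays 3583T3 control replicate 2 and 3151T4 control replicates 3 and 4 were among them for each of the 5, and the others were vector arrays or 3583T3 control replicate 1.

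Markers of other cell types were also called in these tests. Of 15 macrophage and leukocyte markers, 10, 8 and 8 had a lower response in 3583T3 with Nfib, Mycl1 and both genes. Of all tested probe sets 3.3%, 0.538% and 1.37% did. Their control arrays averaged 7.75 to 8.59 in 3583T3, against 6.42 to 6.53 in 3151T4, and the vector arrays of both lines 2.90 to 3.35. With the vector arrays that low, these counts follow the control levels and show no differing response. Of the 15, 9 passed the filter only through control arrays. Of 8 epithelial markers, 4 had a higher response in 3583T3 and 1 a lower one with Nfib, beside 2.3% and 3.3% of all. The same counts held with both genes, beside 3.57% and 1.37%, and 6 of the 8 passed the filter on the 3151T4 arrays. The part of these markers in the integrin responses was not tested.

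**Figure D4:**
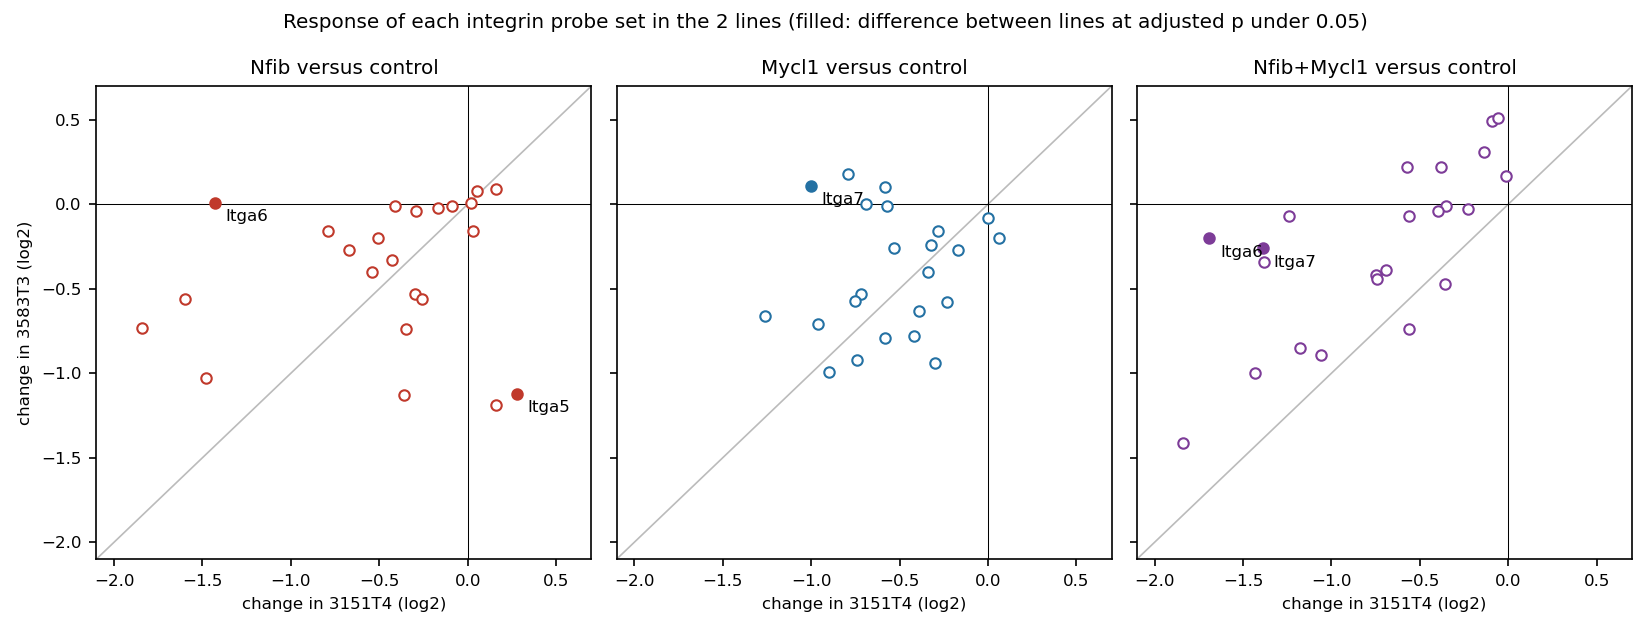
Change from control in 3583T3 (vertical axis) against that in 3151T4 (horizontal axis), both log2, for the 23 tested integrin probe sets with Nfib, Mycl1 and Nfib+Mycl1; the grey diagonal marks equal responses and filled points have a difference between lines with an adjusted p under 0.05. Itga6 1422445_at lies at 0.01 and -1.43 with Nfib and at -0.20 and -1.69 with both genes.

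Within each line, 19, 19 and 17 of the 23 integrin probe sets had a lower mean with Nfib, Mycl1 and both genes than in control in 3583T3, which is 82.6%, 82.6% and 73.9%, where 47.5%, 45.7% and 45.5% of all tested probe sets did. The median changes were -0.27, -0.40 and -0.20. In 3151T4 the counts were 17, 21 and 23, which is 73.9%, 91.3% and 100%, where 48.8%, 44.9% and 48.5% of all did, with median changes of -0.35, -0.57 and -0.57. The 23 with both genes include Itga7, whose direction there was built in by the filter. The probe sets of 1 gene share its transcript, so these are not independent counts.

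The other integrin subunits on the array, 12 genes, averaged at or below log2 4 over the 16 arrays, and 5 of them passed the filter. Itgb2, the beta subunit of leukocyte integrins, averaged 2.44, 2.29 and 2.33 with Nfib, Mycl1 and both genes, against 5.87 in control, and passed the filter only through the 4 control arrays, so no difference is given. Its partners Itgal, Itgam and Itgax averaged at or below 2.51 in every vector group and in control. Itga4, a leukocyte subunit that binds Vcam1, averaged 2.64, 2.93 and 2.76 with Nfib, Mycl1 and both genes, against 3.61 in control, and passed only through 2 control arrays of 3583T3. Itgb4, the other partner of alpha6, lay between 2.37 and 4.90 and exceeded log2 4 on 2 arrays of 3583T3 and 0 of 3151T4, too low to compare the lines.

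Adaptors and kinases that link integrins to actin were called in 1 direction against control. Of 30 tested genes, each by its brightest probe set, 5 fell with Nfib, 6 with Mycl1 and 13 with both genes, with median changes of -0.24, -0.25 and -0.38, and 0 rose. That is 16.7%, 20% and 43.3%, beside 4.3%, 3.92% and 13.3% of all tested probe sets that fell and 4.15%, 6.04% and 15.6% that rose. The same count over the 8 tested integrin genes by their brightest probe set was 0, 1 and 4 that fell. The 4 include Itga7, whose direction with both genes was built in by the filter. Tgfb1i1 (Hic-5, a paxillin relative) fell with Nfib (-1.55 ± 0.29, adjusted p = 0.00373) and with both genes (-1.63 ± 0.29, adjusted p = 0.00179). Lims2 (PINCH2), a partner of integrin-linked kinase, fell with Nfib (-1.34 ± 0.28), with Mycl1 (-1.06 ± 0.28) and with both (-1.41 ± 0.28). It averaged 3.95, 4.23 and 3.88 in these groups, near the filter cut of log2 4, against 5.29 in control. The kinase Ptk2b (Pyk2) fell with Mycl1 (-0.92 ± 0.25) and with both genes (-1.05 ± 0.25).

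Between vector groups, 1 of 30 adaptors (3.33%) fell with both genes relative to Mycl1, beside 1.61% of all tested probe sets. It was the actin cross-linker Actn1 (-0.37 ± 0.08, adjusted p = 0.0266, and 0.0646 without the doubted arrays). Relative to Nfib 6 (20%) fell, beside 6.8% of all, among them Pxn, paxillin (-0.59 ± 0.14, adjusted p = 0.0161), and Parva, alpha-parvin (-0.57 ± 0.12, adjusted p = 0.0131). Between lines, 15 adaptors (50%) were higher in 3583T3 and 5 (16.7%) lower, beside 30.4% and 27.7% of all, with Tgfb1i1 4.44 ± 0.21 higher. All 30 passed the filter on the 3583T3 arrays alone and 29 on those of 3151T4, so for the remainder a higher signal in 3583T3 was built in. Without the 2 doubted arrays the counts that fell were 2 with Nfib (and 1 rose), 8 with Mycl1, 14 with both genes, and 13 with both genes relative to Nfib. The share of all probe sets called without those arrays is not given here, so these counts are a description.

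Ligands went in both directions. Of 31 tested, 3 rose and 4 fell with Nfib, 0 rose and 3 fell with Mycl1, and 1 rose and 10 fell with both genes. The shares that fell were 12.9%, 9.68% and 32.3%, beside 4.3%, 3.92% and 13.3% of all tested probe sets, and those that rose were 9.68%, 0% and 3.23%, beside 4.15%, 6.04% and 15.6%. Postn, periostin, a ligand of alphav integrins, rose with Nfib (3.55 ± 1.00, adjusted p = 0.0385) and with both genes (2.83 ± 1.00, adjusted p = 0.0449), and lost both calls without the doubted arrays (adjusted p = 0.105 and 0.102). Npnt, nephronectin, the ligand of alpha8, fell with Nfib (-2.26 ± 0.60, adjusted p = 0.0281) and with both genes (-2.55 ± 0.60, adjusted p = 0.00699), in cultures where Itga8 itself stayed below log2 4.

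Lama4, the alpha chain of a laminin, rose with Nfib (1.94 ± 0.34, adjusted p = 0.00238), fell with Mycl1 (-1.60 ± 0.34, adjusted p = 0.0161) and was higher with both genes than with Mycl1 (2.52 ± 0.34, adjusted p = 0.00122). Tgfbi, a matrix protein bound by alphav and alpha3 integrins, fell with Nfib (-2.17 ± 0.46), Mycl1 (-1.67 ± 0.46) and both genes (-1.84 ± 0.46). Without the doubted arrays 12 ligands fell with Mycl1 and 13 with both genes, counts given without the share of all probe sets in that setting. Between lines, 9 ligands (29%) were higher in 3583T3, near the 30.4% of all, and 13 (41.9%) lower, beside 27.7% of all. All 31 passed the filter on the 3151T4 arrays alone, but 25 on those of 3583T3. For the rest a lower signal in 3583T3 was built in, so the count of 13 is no measure of the lines. Among the lower were Emilin1, a ligand of alpha9 and alpha4 (-4.05 ± 0.31), and Postn (-3.44 ± 0.71). The fibroblast list, which also holds Postn, Col1a1 and Col1a2, moved with the Nfib comparisons: 8 of 15 rose with Nfib and 3 with both genes, and their part was not tested.

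For the 3 integrin genes whose 8 group means spread most on the gene's brightest probe set, the genes with the most similar pattern over the 16 arrays were looked up among 8630 genes by Pearson's r. Itga6 1422445_at was closest to Cavin2 (0.967), Vamp8 (0.965) and Fblim1 (0.965). Itga9 1450029_s_at was closest to Lrp10 (0.98), Aplp1 (0.976) and Evi2a (0.975). Itga7 was closest to Lamb3 (0.968), Jam2 (0.966) and Rab2b (0.965). The 16 arrays fall into 2 lines and share vectors, so these values are a description.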

How the data were processed

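Total RNA was isolated with Trizol and 100 ng per sample was amplified (NuGEN Ovation V2) before biotin labelling, according to the protocols in the labels. The authors deposited GCRMA log2 signals; the submitters' processing notes name GCRMA 2.20.0 and R 2.11.0; the log2 scale was inferred from their range (0.48 to 14.4) and the usual output of that tool. Of 22690 probe sets, 64 controls were left out. Linear models were fitted to all 16 arrays with limma 3.58.1 in R 4.3.3 (lmFit, eBayes with trend): 4 vector levels plus line (11 residual degrees of freedom), and 8 group means (8) for responses that differ between lines. P-values were adjusted by Benjamini-Hochberg over the 15799 tested probe sets. The script was tested on simulated data. Every integrin probe set is named; for other lists, each gene's brightest probe set was counted and at most 3 called genes per list and comparison could be named, and the Nfib value of Lama4 and the Itgal, Itgam and Itgax levels were chosen after they were seen. The members, lists and tests were chosen with earlier results of these data known. Alternatives were no filter, a filter at log2 6, 1 probe set per gene, a second quantile normalization, no trend, a replicate block, averaged replicates, 8 means, leaving out each array, and leaving out the 2 doubted arrays. The number of arrays limits the precision.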

Additional observations from a re-analysis of the deposited data

Results flagged for a closer look

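For 3 integrin genes a test of the difference itself called 5 responses that differed between the lines, each the change from control in 3583T3 minus that in 3151T4. With Nfib the difference was 1.44 for Itga6 1422445_at and -1.40 for Itga5 1423268_at. With Mycl1 it was 1.11 for Itga7. With Nfib+Mycl1 it was 1.49 for Itga6 1422445_at and 1.13 for Itga7. The 2 Itga7 values rest on a probe set that stayed below log2 4 in 3583T3 and entered the test through 3151T4 alone. They are no evidence of a differing response. The second Itga6 probe set (adjusted p = 0.138 and 0.156 with Nfib and both genes) and the second of Itga5 (0.0796) did not pass. Each of the 5 calls ended in 4 to 11 of the 16 fits that left out 1 array. Those of Itga7 with Mycl1 and of Itga5 with Nfib also ended with the replicate block, and that of Itga5 ended with no filter. Without the 2 arrays that went against their labels, Itga6 passed with Nfib and with both genes and Itga5 did not (adjusted p = 0.0903).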

How the results depend on the processing

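Every call of a member in the comparisons with control kept its direction under all alternatives run, and no called value reversed; what changed was the number called. With Nfib (3 of 23 called) there were 0 with 1 probe set per gene, 6 with 8 means, 0 with averaged replicates, and 1 to 4 when single arrays were left out. With Mycl1 (3) there were 1 with 1 probe set per gene, 11 with 8 means, 0 with averaged replicates, 1 with the replicate block, 7 without the 2 doubted arrays, and 0 to 6 when single arrays were left out. With both genes (10) there were 8 with the replicate block, 4 with 1 probe set per gene, 0 with averaged replicates, and 5 to 11 when single arrays were left out. Nfib+Mycl1 versus Mycl1 (0) gave 1 with 8 means; versus Nfib (0) it gave 1 with 8 means, 3 without the doubted arrays, and 0 to 1 when single arrays were left out. Between lines (17) 1 probe set per gene gave 5. Among the responses that differ between lines, Nfib (2) gave 1 with no filter, the log2 6 filter, 1 probe set per gene, the replicate block or no doubted arrays, and 0 to 3 when single arrays were left out. Mycl1 (1) gave 0 with the log2 6 filter or the block, and 0 to 1 when single arrays were left out; both genes (2) gave 1 with the log2 6 filter, and 0 to 2 when single arrays were left out. 1 probe set per gene leaves fewer probe sets to call and averaging leaves fewer arrays; otherwise the cause was not tested. The main fits did not pair samples by replicate number. Deviations of same-numbered arrays correlated at -0.72 to 0.29. The -0.72 is of 3583T3 Nfib with 3583T3 Nfib+Mycl1, which each hold a doubted array, and the next lowest value was -0.44.

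With 2 arrays a group, a change that misses the test is not shown to be absent. Signals near the floor of the scale (Itga7, Itga8, Itgb3) can understate changes, and differences are of array signal, not of protein on the cell surface.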
